A study of Mus musculus with 4 samples.

Results

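A set of 10 transcription factor genes that are active in vessels was examined for RNA polymerase II (Pol II) binding in brain endothelial cells (ECs). They were Sox7, Sox17 and Sox18, Foxf2, Foxq1, Foxc1 and Foxo1, Tal1, Gata2 and Nr2f2, 10 of the 21938 protein-coding genes of the annotation. They were chosen by name. For each gene, every Pol II peak was taken that overlapped the 1500 bp on either side of an annotated transcription start site (TSS), that lay elsewhere in the gene body, or that lay within 50 kb of either end of the gene. Pol II chromatin immunoprecipitation sequencing marks where the enzyme that transcribes protein-coding genes sits on DNA, and a peak near a TSS shows it at the promoter.

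The 4 libraries came from 2 groups of mice on the C57BL/6J background, and the labels give no sex for these libraries. The old WT Cre mice (2 libraries, genotype CdH5CRE in the labels) carried a tamoxifen-inducible Cre driven by the EC gene Cdh5 (VE-cadherin) with no floxed Klf4 named in the labels, and their replicates 1 and 2 are called oldWT1 and oldWT2. The young EC-K4KO mice (2 libraries) carried the same Cre with floxed Klf4, a zinc-finger transcription factor gene, so that tamoxifen given in early adulthood deletes Klf4 in ECs (the study states that controls were treated in the same way), and their replicates 1 and 2 are called youngKO1 and youngKO2. The comparison sets Pol II in ECs of young EC-K4KO mice beside that in ECs of old control mice. Age and genotype differed together, so they cannot be told apart. Pol II libraries of the missing combinations, young with Klf4 and old without it, were not analysed here. Per the study's methods the ECs were sorted from dissociated brain, and the libraries of a group are called biological replicates, but neither the labels nor the methods say that each came from other animals, so a p-value here measures only the spread between these libraries.

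SOX7, SOX17 and SOX18 form the SOXF group of HMG-box factors, which act in arterial and lymphatic vessels. The forkhead (FOX) factors bind DNA through a winged helix, and FOXO1 among them keeps ECs quiescent and is held out of the nucleus by AKT signalling. TAL1 is a basic helix-loop-helix factor that binds E-box sequences beside GATA2, with LMO2 and LDB1 as bridges, and Nr2f2 encodes COUP-TFII, a nuclear receptor known for venous identity.

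The peak caller counted 22705175 to 65734178 fragments per library and called 35638 to 235591 peaks. The longest list came from the library with the fewest fragments, youngKO2. Heights are given as pileup, the number of fragments over the summit of a peak, and as pileup per 1000000 fragments of the same library (ppm). The tallest peak alone had a pileup of 14.6% of the fragments in oldWT1, 15.3% in oldWT2, 3.36% in youngKO1 and 1.73% in youngKO2. These fragments count in the denominator of ppm, which lowers ppm more in the old WT Cre libraries. The lowest called peak stood at 0.198 ppm in oldWT1, 0.291 in oldWT2, 0.255 in youngKO1 and 0.308 in youngKO2. A gene without a peak therefore had no pileup that passed the threshold of its library, which does not show that Pol II was absent, and values of 0 below stand for that. At Klf4, the targeted gene, the promoter held no peak in either old WT Cre library and stood at 0.426 and 0.881 ppm in youngKO1 and youngKO2 (p = 0.33 by a two-sided exact permutation test, which is the lowest p this design of 2 against 2 can give). Those peaks lay apart, at -995 and 1198 bp from the TSS. In its coding exons Klf4 also held peaks of 26 fragments (5.67-fold) at 1909 bp and 17 fragments (4.43-fold) at 4229 bp in youngKO2, and of 18 fragments (3.12-fold) at 1908 bp in oldWT1. The extent of the floxed interval is not given in the sources used here, and Pol II on the gene does not measure the transcript, so these peaks do not check the genotype labels. In bulk chromatin, fewer cells with Pol II at a gene and less Pol II per cell cannot be told apart.

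Promoter peaks at the 10 regulators differed from library to library. A promoter peak was called at 4 of the 10 in oldWT1, where 25.6% of all protein-coding genes had one, and at 4 in oldWT2, beside 24.5%. In youngKO1 it was called at 0 of the 10, beside 10.6% of all genes, and in youngKO2 at 7, beside 67.5%. The members thus stood above the share of all genes in both old WT Cre libraries, below it in youngKO1 and near it in youngKO2, and with 10 genes a single gene moves the share by 10 percentage points. In oldWT1 the order turned with a TSS window of 500 bp, to 1 of 10 beside 18.3% of all genes, and with lists of equal length, to 1 of 10 beside 11.8%. Sox18 and Foxo1 had a promoter peak in both old WT Cre libraries, 2 of 10 beside 10.1% of all genes, but the count was 0 with a window of 500 bp, with q of at most 1e-05 and with lists of equal length, and 1 when the summit had to lie in the window. No member had one in both young EC-K4KO libraries, which 9.11% of genes had, and none had one in all 4, which 2.22% had. Sox17 and Foxq1 had none in any library, as did 5577 of the 21938 genes.

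No member separated the groups. A promoter ppm higher in both young EC-K4KO libraries than in both old WT Cre libraries was found for 0 of 10 members and 5.43% of all genes, and the opposite order for 0 members and 0.893% of genes. For the 8 members with a peak the difference of group means, young EC-K4KO minus old WT Cre, ran from -0.273 ppm at Foxf2 to 0.639 at Gata2, and each gave p = 1.0 (two-sided exact permutation test). The median difference over the 10 members was 0.117 ppm, beside 0.199 over all genes. Because youngKO1 held no peak at any of these promoters, every young value above 0 came from youngKO2, and without that library the difference was 0 or below at all 10. Without youngKO1, 7 members were higher in the remaining young library than in both old ones. These were the members with a promoter peak in youngKO2, where 67.5% of all genes had one. The share of all genes in that order was not taken.

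**Figure D1:**
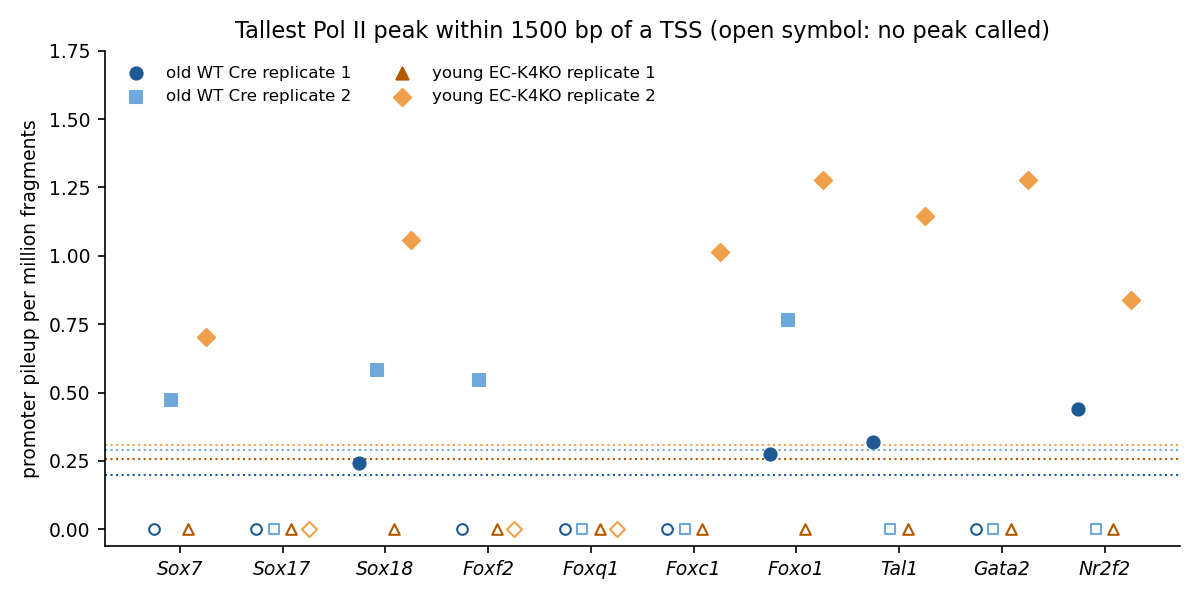
Promoter pileup per 1000000 fragments (ppm, y axis) of each regulator (x axis) in the 4 libraries. Each point is the tallest peak within 1500 bp of a TSS in 1 library, open symbols at 0 mark no called peak, and dotted lines give the lowest callable value of each library; the filled young EC-K4KO points all belong to replicate 2 and run from 0.705 to 1.28 ppm.

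Among the SOXF genes, Sox18 was called most often. Sox18 (chr2:181669836-181671640, minus strand) had promoter values of 0.243 and 0.583 ppm in oldWT1 and oldWT2, 0 in youngKO1 and 1.06 in youngKO2. The 3 peaks did not mark 1 position: the summits lay at 1034 bp in the coding exon, at -122 bp upstream and at 354 bp in the coding exon, and the first and last of these peaks overlapped in 118 bp. Sox7 (chr14:63943673-63950732, plus strand) had a promoter peak of 13 fragments in oldWT2 and of 16 in youngKO2, 0.473 and 0.705 ppm, and none in the other library of each group. Neither peak passed q of at most 1e-05. Here the summits lay 93 and 116 bp downstream of the TSS, in the first coding exon, with fold enrichments of 3.79 and 3.86 over the local background. A second Sox7 region was shared by the young EC-K4KO libraries alone among the 4, in a coding exon at 4746 and 4837 bp, with 15 fragments (3.42-fold) in replicate 1 and 20 (5.12-fold) in replicate 2. It is the only gene-body region of a member that both young EC-K4KO libraries held.

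Sox17 (chr1:4490931-4497354, minus strand) had no promoter peak but held a gene-body peak in 3 libraries. These had 14 fragments in oldWT2, 12 in youngKO1 and 19 in youngKO2, with summits 3773, 2616 and 2970 bp from the nearest of its 4 TSS. The 3 peaks did not overlap each other. With a TSS window of 3000 bp Sox17 became the only member whose promoter carried a peak in both young EC-K4KO libraries and lacked one in both old ones (p = 0.33, two-sided exact permutation test). The oldWT2 peak at 3773 bp fell outside that window. With it 14.1% of all genes had a promoter peak in youngKO1 and 76.9% in youngKO2, and the share of all genes in the order of Sox17 was not taken. The regions near Sox17 that both old WT Cre libraries shared lay outside the gene. One, with summits at -11911 and -12143 bp, had 36 fragments (6.95-fold) in oldWT1 and 17 (6.71-fold) in oldWT2, and the other, at 16557 and 16635 bp past the TSS, had 22 (4.32-fold) and 11 (4.47-fold). Both lay in TG dinucleotide repeats, which the reference marks as repeats over 100% of the 200 bp at their centres. The downstream window is shown because it is the most repetitive of the 28 shared regions, with 37 copies of the 12-base word in capitals, a number reached in 0.515% of the 42110 windows of 200 bp at the centres of regions that at least 2 libraries shared anywhere in the genome (GRCm38, chr1:4480734-4480933, plus strand).

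Sox17 downstream: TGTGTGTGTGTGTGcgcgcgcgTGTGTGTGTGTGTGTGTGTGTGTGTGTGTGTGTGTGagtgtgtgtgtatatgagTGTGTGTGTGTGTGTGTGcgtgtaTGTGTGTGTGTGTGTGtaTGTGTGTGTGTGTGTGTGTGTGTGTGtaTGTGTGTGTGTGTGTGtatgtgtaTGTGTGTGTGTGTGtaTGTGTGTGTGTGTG

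The forkhead genes Foxq1, Foxf2 and Foxc1 lie in this order on chromosome 13, and each showed a different pattern. Foxf2 (chr13:31625816-31631403, plus strand), which acts in brain ECs and pericytes, had a promoter peak in oldWT2 alone, at 0.546 ppm with its summit 42 bp downstream of the TSS, which did not pass q of at most 1e-05. The same window covers the start of the noncoding gene 1700018A04Rik, and reads at a shared start cannot be assigned to 1 of the genes. In youngKO2 the only Foxf2 gene peak lay in the intron at 3735 bp, with 29 fragments (5.50-fold). A region upstream of Foxf2, at -10418 and -10363 bp and inside 1700018A04Rik, was shared by both old WT Cre libraries with 32 fragments (5.28-fold) in replicate 1 and 12 (4.18-fold) in replicate 2, and had no peak in either young EC-K4KO library.

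Foxq1 (chr13:31556134-31560976, plus strand), a forkhead gene enriched in brain ECs, depended on which TSS was used. GENCODE starts the gene 2036 bp before RefSeq does, and no peak lay within 1500 bp of the GENCODE start. With the RefSeq start, Foxq1 had a promoter peak in 3 libraries, at 0.243 and 0.437 ppm in oldWT1 and oldWT2 and 0.969 in youngKO2, with none in youngKO1 (p = 1.0, two-sided exact permutation test). Sox18, Foxq1 and Foxo1 then made 3 members with a promoter peak in both old WT Cre libraries. From RefSeq starts 22.8% of the matched genes had one in oldWT1 and 22.2% in oldWT2, and the share in both was not taken. Nr2f2 lost its promoter peak in oldWT1 and kept one in youngKO2 alone, at 0.573 ppm. Foxq1 peaks of the 3 libraries chained into 1 region of 500 bp over the coding exon (chr13:31558890-31559389), with 16 fragments (2.75-fold), 12 (4.03-fold) and 22 (5.53-fold), but no base of it lay under the peaks of more than 2 libraries. This region also falls in the promoter window of the antisense gene A530084C06Rik, and fragments of the pair cannot be told apart by strand. Foxc1 (chr13:31806633-31812476, plus strand), known for its part in vessel and meningeal development, had 1 promoter peak, of 1.01 ppm in youngKO2 with its summit 58 bp past the TSS, and none of its 23 regions within 50 kb recurred in a second library.

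Foxo1 (chr3:52268336-52353221, plus strand) had the tallest promoter peak of the set in oldWT2, and in youngKO2 it and Gata2 shared the highest value. It stood at 0.274 ppm in oldWT1, 0.765 in oldWT2, 0 in youngKO1 and 1.28 in youngKO2. The old values thus lay between the young ones, and the groups overlapped. The peak of 0.765 ppm ranked at percentile 96.1 among the promoter peaks of oldWT2, and that of 1.28 at percentile 89.9 in youngKO2. Both of these peaks lay upstream of the TSS, with summits at -372 and -313 bp, 21 and 29 fragments and fold enrichments of 6.31 and 8.06, and shared 173 bp. A further region in the first intron, with summits at 1916 bp in oldWT1 and 1483 bp in oldWT2, was shared by both old WT Cre libraries (18 fragments, 3.57-fold, in replicate 1 and 16 fragments, 5.09-fold, in replicate 2). Both regions also lie within 1500 bp of a start of the antisense gene Gm20402. The upstream peak is shown because it is the recurrent promoter region of the set with the highest fold enrichment, in 200 bp around the shared stretch (GRCm38, chr3:52267877-52268076, plus strand), followed by the 250 bases that RefSeq places just before its start (chr3:52268087-52268336, plus strand). Capitals mark the forkhead consensus TGTTTAC in the first and the KLF/Sp consensus GGGCGGG in the second, both read here on the other strand.

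Foxo1 upstream peak: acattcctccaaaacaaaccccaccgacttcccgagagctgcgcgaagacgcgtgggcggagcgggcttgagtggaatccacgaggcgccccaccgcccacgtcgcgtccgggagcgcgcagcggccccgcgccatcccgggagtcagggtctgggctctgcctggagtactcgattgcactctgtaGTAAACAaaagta

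Foxo1 promoter: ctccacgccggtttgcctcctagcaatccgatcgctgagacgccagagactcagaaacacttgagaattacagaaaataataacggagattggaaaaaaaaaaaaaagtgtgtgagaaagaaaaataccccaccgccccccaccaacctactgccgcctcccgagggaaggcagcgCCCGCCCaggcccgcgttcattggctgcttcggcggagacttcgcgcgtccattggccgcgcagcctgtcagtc

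The forkhead consensus in the Foxo1 upstream window was present in 2.18% of the 42110 windows at shared regions. Such a match describes letters in a window and is not a bound site. The Foxo1 gene body, the longest of the set at 84886 bp, held peaks in all 4 libraries. One intronic region, with summits from 59629 to 60045 bp past the TSS, was called in 3 of them, with 15 fragments (2.96-fold) in oldWT1, 11 (4.31-fold) in oldWT2 and 14 (5.62-fold) in youngKO2. The peaks were offset, so that no base lay under all 3, and the stretch that 2 of them shared is a tandem repeat with a unit of 43 bases. In the window shown (GRCm38, chr3:52328026-52328225, plus strand), capitals mark the 12-base word that occurs 4 times, a count reached by 12.6% of those windows.

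Foxo1 intron: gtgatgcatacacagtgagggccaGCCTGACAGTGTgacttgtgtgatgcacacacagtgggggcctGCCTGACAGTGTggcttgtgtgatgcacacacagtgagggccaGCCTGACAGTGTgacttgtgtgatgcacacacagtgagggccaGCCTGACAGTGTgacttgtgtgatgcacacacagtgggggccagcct

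Tal1 and Gata2, partners in DNA binding, differed in where their peaks fell. Tal1 (chr4:115056426-115071755, plus strand) had promoter values of 0.319 ppm in oldWT1 and 1.15 in youngKO2, and 0 in the other library of each group. Their summits fell 101 and 92 bp past the first TSS, and both libraries also held a peak 140 and 133 bp past an internal TSS. The peaks at the internal TSS were low, with 15 fragments (2.92-fold) in oldWT1 and 11 (2.84-fold) in youngKO2. Of the members, Sox17, Tal1, Gata2 and Nr2f2 had more than 1 annotated TSS. Among these, Tal1 was the one at which the same pair of libraries placed peaks at 2 TSS with summits within 9 bp of each other. The library oldWT2 had no promoter peak at Tal1 but held one in a coding exon at 6995 bp (14 fragments, 5.48-fold), which overlapped one of youngKO2 (26 fragments, 6.25-fold). Downstream of the gene, at 23282 and 23229 bp, both young EC-K4KO libraries shared a region with 18 fragments (4.57-fold) and 10 (3.35-fold) that had no peak in either old WT Cre library. The RefSeq promoter of the first Tal1 TSS is shown because both promoter peaks begin in its last bases (GRCm38, chr4:115056176-115056425, plus strand). Its capitals mark the GATA consensus AGATAA on the other strand, which 9.45% of all promoter windows hold. The downstream region of the young EC-K4KO pair follows (chr4:115079565-115079764, plus strand), with the KLF/Sp consensus GGGTGGG and the E-box CAGATG (on the other strand) in capitals. Of the windows at shared regions, 8.29% and 12.9% hold them.

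Tal1 promoter: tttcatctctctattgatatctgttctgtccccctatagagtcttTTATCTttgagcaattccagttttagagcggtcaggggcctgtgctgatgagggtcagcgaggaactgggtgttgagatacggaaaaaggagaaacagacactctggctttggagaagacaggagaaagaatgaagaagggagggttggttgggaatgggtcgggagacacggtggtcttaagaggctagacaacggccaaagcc

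Tal1 downstream: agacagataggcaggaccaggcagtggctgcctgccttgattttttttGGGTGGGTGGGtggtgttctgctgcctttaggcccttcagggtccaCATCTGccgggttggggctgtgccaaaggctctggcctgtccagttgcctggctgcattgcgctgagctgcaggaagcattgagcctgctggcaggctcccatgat

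Gata2 (chr6:88193891-88207032, plus strand) had a promoter peak in youngKO2 alone, at 1.28 ppm with the summit 176 bp past the first TSS. That library held 26 peaks within 50 kb of Gata2 (percentile 88.4 of all genes), against 2 in oldWT1 and 0 in oldWT2 and youngKO1. The median gene had 17 in youngKO2, 5 in oldWT1, 3 in oldWT2 and 2 in youngKO1. The local background under the Gata2 promoter peaks of youngKO2 reached 7.24 fragments, 5.58 times the lowest background of that library, at percentile 99.6 of its promoter peaks. The tallest Gata2 promoter peak had 29 fragments, as that of Foxo1 did in the same library, and reached 4.06-fold beside 8.06-fold at Foxo1. Among lists limited to the 35638 peaks of highest significance, Gata2 had no promoter peak in any library. The 2 peaks of oldWT1, at -19623 and 16274 bp, both recurred in youngKO2, at -19683 and 16279 bp. In the upstream one (18 and 14 fragments, 3.57-fold and 5.26-fold) the window of 200 bp holds the SOX consensus ACAAT and the GATA consensus AGATAA, both on the other strand and in capitals below, which 12% and 3.53% of the windows hold. The reference marks 55.5% of it as repeats (GRCm38, chr6:88174156-88174355, plus strand).

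Gata2 upstream: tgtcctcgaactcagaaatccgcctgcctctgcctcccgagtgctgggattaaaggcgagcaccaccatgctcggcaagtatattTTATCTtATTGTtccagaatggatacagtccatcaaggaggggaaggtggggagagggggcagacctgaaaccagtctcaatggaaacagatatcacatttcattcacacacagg

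Nr2f2 (chr7:70351944-70366735, minus strand) had the most recurrent regions of the set, all of them shared with youngKO2, the library with the longest list. Of the 26 regions within 50 kb, 9 were called in 2 libraries, beside 12.4% of all regions within 50 kb of a protein-coding gene. Without youngKO2 the count was 0 of 14. Near an internal TSS, peaks that reached into its window had 29 fragments (4.32-fold) in oldWT1 and 19 (4.52-fold) in youngKO2, with summits 1556 and 1574 bp from that TSS, which gave promoter values of 0.441 and 0.837 ppm, and the other 2 libraries had none. This internal TSS is not the RefSeq start, from which oldWT1 had no promoter peak, and with a TSS window of 500 bp Nr2f2 had none in any library. Upstream, at -2825 and -2892 bp and at -3915 and -3954 bp, inside the divergent noncoding gene B130024G19Rik, oldWT2 and youngKO2 shared a pair of regions with 14 and 12 fragments each. Downstream, both young EC-K4KO libraries shared 2 regions, near 19355 and 60860 bp, of which the second reached 4.14-fold and 7.40-fold. The region with the highest fold enrichment of any recurrent region near a member, 9.58-fold in youngKO2 and 4.13-fold in oldWT1, lay 58853 and 58792 bp from the TSS, within 50 kb of the far end of the gene, in the noncoding gene Gm29683. It is shown for that reason, with the forkhead consensus TGTTTAC (on the other strand) and the SOX consensus ACAAT in capitals (GRCm38, chr7:70307832-70308031, plus strand). The reference marks 95% of it as repeats.

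Nr2f2 downstream: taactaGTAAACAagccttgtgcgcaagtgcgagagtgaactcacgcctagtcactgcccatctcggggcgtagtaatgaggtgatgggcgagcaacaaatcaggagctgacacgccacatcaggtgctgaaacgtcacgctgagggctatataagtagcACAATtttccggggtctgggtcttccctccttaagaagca

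**Figure D2:**
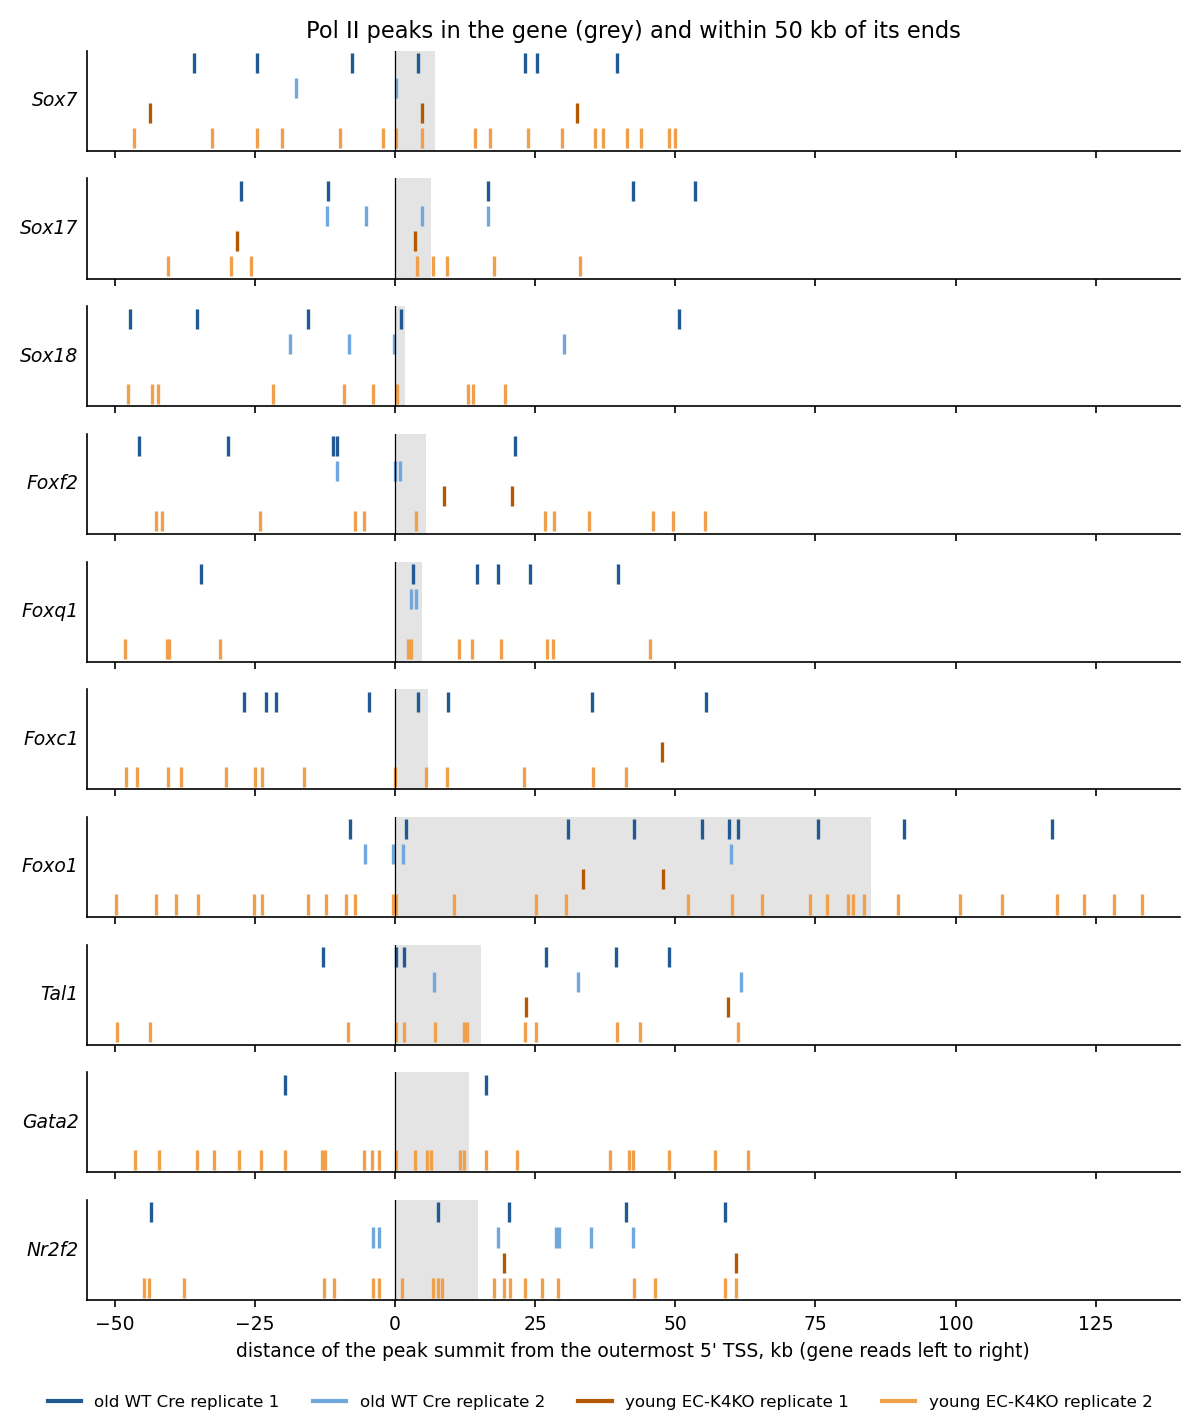
Peak summits (vertical ticks) by distance from the outermost 5′ TSS in kb (x axis), for each regulator and each of the 4 libraries, with the gene body in grey. youngKO2 fills most loci, with 30 peaks at Foxo1 and 26 at Gata2, while youngKO1 has at most 3 at any gene. The median of all genes is 17 peaks in youngKO2 and 2 in youngKO1.

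Peaks in gene bodies outside the promoter window were called at 4 of 10 members in oldWT1 (46.7% of all genes), at 4 in oldWT2 (32.9%), at 3 in youngKO1 (26%) and at 9 in youngKO2 (68.8%). The counts of oldWT1, oldWT2 and youngKO1 were each within 1 gene of the share of all genes, and that of youngKO2 lay above it. Within 50 kb of the 10 genes there were 57, 29, 14 and 161 distinct peaks in oldWT1, oldWT2, youngKO1 and youngKO2. The median member had 5.5, 3, 2 and 13.5 peaks, and the median of all genes was 5, 3, 2 and 17. The members therefore lay close to the median gene in 3 libraries and below it in youngKO2. Foxo1 had the most peaks in both oldWT1 (10) and youngKO2 (30), and Nr2f2 the most in oldWT2 (7). Windows of Foxq1 and Foxf2 overlap, and their shared peaks were counted once.

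**Figure D3:**
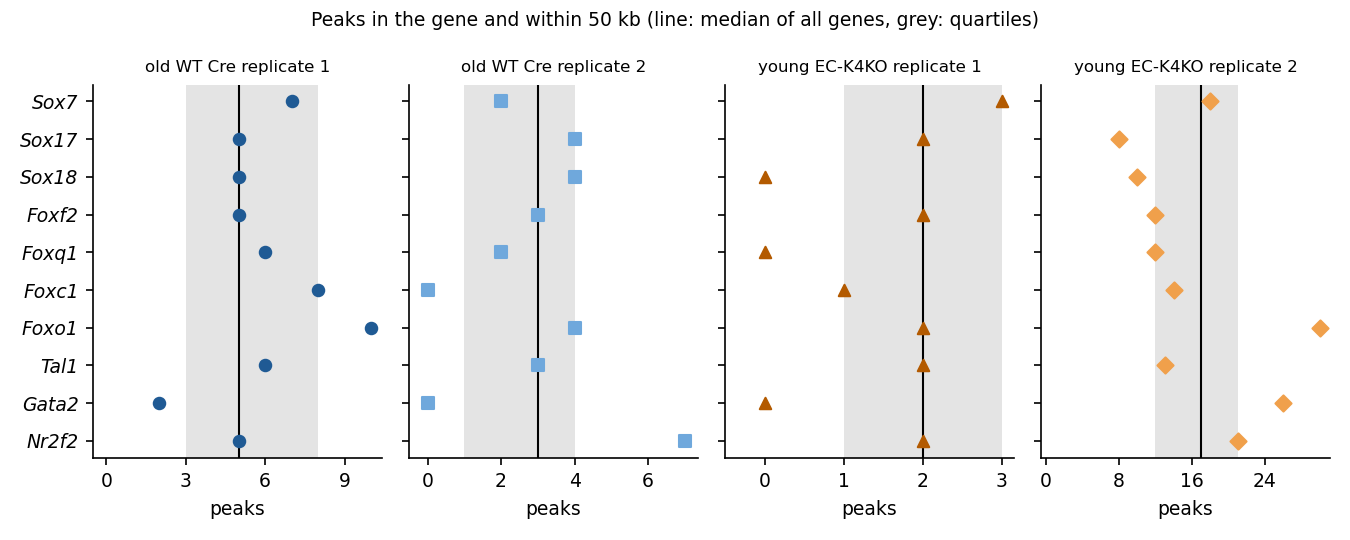
Number of peaks in the gene and within 50 kb of its ends (x axis) for each regulator (y axis), 1 panel per library, with the median of all protein-coding genes as a line and their quartiles in grey. The points fall around the line, which stands at 5, 3, 2 and 17 peaks.

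The peaks near the members merged into 231 regions, of which 26 were called in 2 libraries, 2 in 3 and 0 in all 4. The share in at least 2 libraries, 12.1%, was close to the 12.4% of all regions within 50 kb of a protein-coding gene, and the share in at least 3 was 0.866% beside 2.39%. Without youngKO2, 5 of the 95 remaining regions were shared (5.26%, beside 10.8%), 2 at Sox17, 2 at Foxo1 and 1 at Foxf2. Of the 14 peaks of youngKO1 near a member, 4 were overlapped by youngKO2 (28.6%, beside 29.3% of all its peaks), and 0 by either old WT Cre library, beside 16.9% and 12.3% of all its peaks. Of the 29 peaks of oldWT2, 5 were overlapped by oldWT1 (17.2%, beside 25.9%) and 9 were overlapped by youngKO2 (31.0%, beside 36.7%). In these pairs the members' peaks recurred no more often than peaks in general.

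Promoter windows from 250 bases before to 50 after the start were given in RefSeq (GRCm38) for 6 of the 10 members, Foxo1, Tal1, Gata2, Nr2f2, Foxf2 and Foxc1, in 8 windows. In 7 of the 8 windows, those of Foxo1, Tal1, Gata2, Foxf2 and Foxc1, observed over expected CpG lay above the median of 0.588 over 20145 promoter windows, from 0.647 at the first Tal1 TSS to 1.10 at Foxo1, and that of Nr2f2 was the poorest at 0.109. The KLF/Sp consensus GGGCGGG, of interest because Klf4 is the deleted gene, occurred in windows of Foxo1, Tal1, Foxf2 and Foxc1, 4 of 8, beside 35% of all windows. The consensus GGGTGGG occurred in Foxf2 alone, beside 19.2%. Neither SOX consensus (ACAAT and ACAAAG) nor either forkhead consensus (TGTTTAC and TGTTTAT) occurred in any of the 8, beside 26.9%, 16.7%, 2.96% and 3.91% of all windows. All were searched on both strands.

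Of the 12 partners of TAL1 and GATA2, 6, 7, 3 and 8 had a promoter peak in oldWT1, oldWT2, youngKO1 and youngKO2. That is 50%, 58.3%, 25% and 66.7%, beside 25.6%, 24.5%, 10.6% and 67.5% of all genes. Tcf4, Runx1 and Zfpm2 had one in all 4 libraries (3 of 12, beside the 2.22% of all genes). Runx1, a Runt-domain factor of blood and vessel development, stood at 0.624 and 0.437 ppm in the old pair and at 0.539 and 0.969 in the young pair. Tcf4, an E protein that pairs with TAL1, stood at 0.487 and 0.619 and at 0.596 and 0.793. Zfpm2, which encodes the GATA cofactor FOG2, stood at 0.289 and 0.546 and at 0.369 and 1.10. In each the groups overlapped (p = 0.6667, two-sided exact permutation test).

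Of 30 genes reported as targets of SOXF, FOX or GATA2 factors in endothelium, 12, 9, 7 and 21 had a promoter peak in the 4 libraries in the same order. That was 40%, 30%, 23.3% and 70%, beside 25.6%, 24.5%, 10.6% and 67.5% of all genes, and so near that share in youngKO2. Efnb2, the arterial ephrin ligand, was the only one of the 30 with a peak in all 4, at 0.304 and 0.692 ppm in the old WT Cre pair and 0.369 and 0.837 in the young EC-K4KO pair. In 4 of the 30 both young EC-K4KO values lay above both old WT Cre values, beside 5.43% of all genes. These were the guidance receptor gene Nrp1, and Esm1, Robo4 and Aplnr, which had no peak in either old WT Cre library, and they are named after their values were seen. At Nrp1 the order rested on 0.397 ppm in youngKO1 against 0.396 in oldWT1, and with fragments less the tallest peak it turned to 0.411 against 0.463, which left 3 of the 30 beside 4.77% of all genes. Of 30 other endothelial regulators, 10, 8, 5 and 28 had a promoter peak (33.3%, 26.7%, 16.7% and 93.3%). That was near the share of all genes in oldWT2 and above it in the other libraries. Ets1, an ETS factor, was the only one of these regulators with a peak in all 4 (0.396 and 0.692 ppm in the old pair, 0.568 and 0.969 in the young pair). Of 61 SOX, FOX and GATA paralogs of the members, 18, 23, 2 and 52 had one, and Sox6 alone had it in all 4 (0.304 and 0.546, 0.426 and 1.41). The paralogs with a peak were 29.5%, 37.7%, 3.28% and 85.2% of their list, below the share of all genes in youngKO1 and above it in the other libraries.

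**Figure D4:**
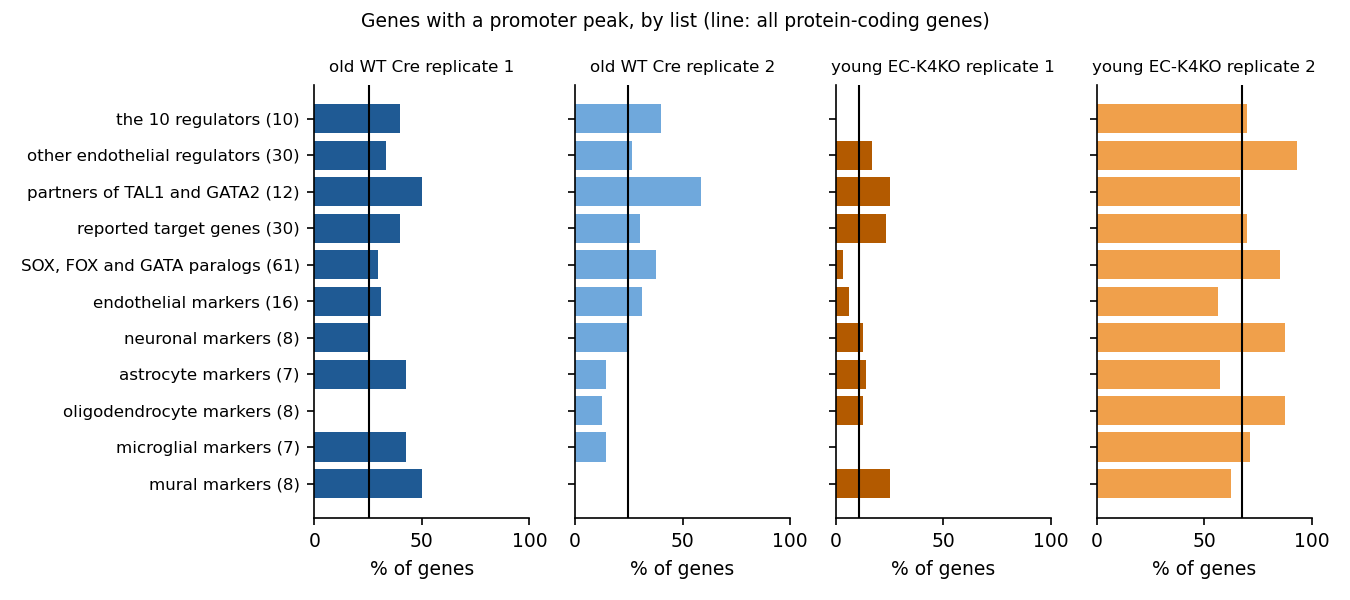
Percent of genes with a promoter peak (x axis) in each fixed list (y axis, number of genes in brackets), 1 panel per library, with the share of all protein-coding genes as a line. The 10 regulators stand at 40%, 40%, 0% and 70%, beside lines at 25.6%, 24.5%, 10.6% and 67.5%.

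The labelled cell type was set against its markers. Of 16 endothelial markers, 5, 5, 1 and 9 had a promoter peak, and their summed promoter pileup was 1.70 and 2.91 ppm in the old pair and 0.511 and 10.9 in the young pair. Cdh5, whose promoter drives the Cre, stood at 0.335 and 0.947 ppm in oldWT1 and oldWT2, 0 in youngKO1 and 3.44 in youngKO2, and 6 of the 16 (Pecam1, Tek, Tie1, Esam, Slco1a4 and Ly6c1) had no promoter peak in any library. These markers are named after their values were seen. Of 8 neuronal markers 2, 2, 1 and 7 had one, with sums of 0.730 and 0.874 and of 0.511 and 5.11 ppm. The counts for other cell types were 0, 1, 1 and 7 of 8 for oligodendrocytes, 3, 1, 1 and 4 of 7 for astrocytes, 3, 1, 0 and 5 of 7 for microglia and 4, 0, 2 and 5 of 8 for mural cells. The share of endothelial markers called was 31.2% in both old WT Cre libraries, beside 25.6% and 24.5% of all genes in oldWT1 and oldWT2. It was 6.25% and 56.2% in youngKO1 and youngKO2, beside 10.6% and 67.5%. With 16 markers a single gene moves the share by 6.25 percentage points, so these differences rest on few genes. In oldWT1 the shares of mural (50%), astrocyte and microglial markers (42.9% each) were higher than the endothelial one, and in oldWT2 the endothelial share was the highest. In youngKO1 mural (25%), astrocyte (14.3%), neuronal and oligodendrocyte markers (12.5% each) stood above it, and microglial markers (0%) below. In youngKO2 every other list stood above it, from 57.1% for astrocyte to 87.5% each for neuronal and oligodendrocyte markers. The part of cell composition in the members' values was not tested.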

How the data were processed

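Pol II ChIP-seq peak lists of 4 libraries were used, 2 from old WT Cre and 2 from young EC-K4KO mice, grouped by the genotype and age in the labels. According to the study's methods and the submitters' processing notes, the authors trimmed reads, used Bowtie2 and the mm10 genome, dropped duplicate fragments and called peaks in each library separately with MACS2 and no control library. The file headers name version 2.2.7.1 and a q cutoff of 0.01. The deposited tables give, per the file headers, the pileup at each summit (a coverage signal in fragments, not normalised), the fold enrichment (a ratio over local background) and −log10 of the p-value and q-value as the authors' caller computed them. Pileup was divided here by the fragments of the same header, per 1000000 (ppm).

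Genes and TSS came from GENCODE M21 (basic, GRCm38), and sequences from the GRCm38 reference and RefSeq promoter tables. No peak passed the end of its chromosome in that reference. A promoter peak overlapped the 1500 bp around any TSS by at least 1 bp, and the tallest counted. Groups were compared by a two-sided exact permutation test over libraries, whose lowest possible p is 0.33. Regions are merged peaks of the 4 libraries. Python 3.11.15, numpy 2.4.6, pandas 2.3.3 and pysam 0.24.0 were used. Tested on simulated data, the promoter step recovered 100% of 200 planted genes over 21938 genes, with 0 called in error. Peaks were planted only at genes with 1 TSS far from any other, so genes with several TSS and shared promoters were not tested. The genes named are the members, Klf4, up to 4 genes of each list with a promoter peak in all 4 libraries (highest lowest value first) and those said to be named later. Members and lists were chosen with earlier results of these data known. The alternatives were other TSS windows, a stricter q, lists of equal length, summits inside the window, protein-coding transcripts alone, other denominators and scales, other flanks, leaving out each library, the replicate block and, chosen after seeing the data, RefSeq starts, matched for 20876 genes.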

Additional observations from a re-analysis of the deposited data

How the results depend on the processing

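The 2 members with a promoter peak in both old WT Cre libraries became 0 with a TSS window of 500 bp, with q of at most 1e-05 and with lists of equal length, and 1 when the summit had to lie in the window. With q of at most 1e-05 the differences of Sox7 and Foxf2 became 0, as neither had a promoter peak left, and with a window of 500 bp so did that of Nr2f2. With a window of 3000 bp, 1 member (Sox17) had a promoter peak in both young EC-K4KO libraries and was higher in both. At that window 14.1% of all genes had one in youngKO1 and 76.9% in youngKO2, and the share in both was not taken. Leaving out 1 library at a time, which makes each criterion for its group rest on the 1 library that remains and so can only raise these counts, the members with a promoter peak in every old WT Cre library left numbered 2 to 4, in every young EC-K4KO library left 0 to 7, in all libraries left 0 to 2, higher in young EC-K4KO 0 to 7 and higher in old WT Cre 0 to 2. Shares of all genes were not taken for these counts with a library left out. Within 25 kb the young EC-K4KO libraries held 8 and 100 peaks, and within 100 kb the 4 libraries held 90, 45, 29 and 260.

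The sign of the small differences between groups was not stable. Nr2f2 turned to -0.0571 ppm with a window of 3000 bp. With lists of equal length Sox7 turned to -0.237, Sox18 to -0.291 and Nr2f2 to -0.221. As fold enrichment Sox18 turned to -1.76 and Foxo1 to -0.908. As percentiles among promoter peaks Sox7 turned to -5.91, Sox18 to -4.63, Foxo1 to -13.8 and Nr2f2 to -19.8. Leaving out 1 library, the differences ran from -0.237 to 0.468 ppm at Sox7, from -0.413 to 0.644 at Sox18, from -0.519 to 0.758 at Foxo1, from -0.160 to 0.985 at Tal1 and from -0.221 to 0.616 at Nr2f2. The causes were not tested. With TSS of protein-coding transcripts alone, the counts of members in both old, both young and all libraries, the counts that separated the groups and the sign of each difference were kept. With fragments less the tallest peak, the counts that separated the groups and each sign were kept, but the difference fell from 0.119 to 0.0381 ppm at Foxo1 and from 0.115 to 0.0514 ppm at Sox18. The replicate numbers are shared by the groups, but with 2 pairs (r = 0.149 across 487 genes between the deviations of same-numbered libraries) they are only numbers. With the replicate block every difference is the same by construction, for example 0.115 ppm at Sox18 and 0.639 at Gata2. The lowest possible p of that test is 0.5, and each p stayed at 1.0, so it adds no check. With 2 libraries a group, 7 to 13 fragments needed for a call and no control library, a missing peak sets no tight limit on Pol II.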
